A study of Mus musculus with 4 samples.

Results

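Broad shared open domains were the regions in which the ATAC-Seq peaks of both sorted heart populations were long. A GFP+ peak was counted when it was at least 2500 bp long and overlapped, by at least 1 bp, a GFP- peak that was also at least 2500 bp long. There were 682 such domains among 65008 GFP+ peaks, and they lay on 676 of the 78912 GFP- peaks. Nuclei came from whole hearts of male C57BL/6 mice of 8 to 12 weeks that carried NuTRAP and Cdh5-Cre, and flow cytometry divided them into GFP+ (endothelial) and GFP- (non-endothelial) nuclei, with 2 replicate libraries each. Both groups carried the same alleles. The NuTRAP reporter labels nuclei wherever Cre has been active, so that GFP+ nuclei were those of cells with present or past activity of the Cdh5-Cre transgene, and GFP- nuclei were all others, cardiomyocytes, fibroblasts and mural cells among them. The authors called 1 peak list per population from both replicates together. The lists therefore have no replicate error, and no test between the populations was possible. Each peak is given by its length and by its position by area within its own list. The area is the significance signal that the peak caller sums over the length of the peak, and position 1 is the largest area of the list. The domains were chosen by the lengths of both peaks, and since area sums over length, lengths and areas are reported as descriptions.

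In most peaks, the Tn5 transposase reaches a short stretch of DNA between nucleosomes. Long open domains occur at strongly transcribed genes, where the moving polymerase disturbs nucleosomes along the gene body, at genes of the immediate early response, which are held ready for rapid induction, and at large enhancers that control cell identity. Promoters of genes used in every cell are usually rich in CpG dinucleotides, whereas promoters of genes for the contractile apparatus are often poor in CpG and rely on tissue-specific factors such as MEF2, GATA4 and SRF. The cardiac sarcomere is built from thick filaments of myosin, thin filaments of actin, tropomyosin and troponin, and the Z-disc that anchors them.

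Sequences are shown for 7 of the domains that held a gene start, to set promoters of contractile genes beside promoters of immediate early genes and of Srf. Each is the 250 bases before the start of the gene record, read in the direction of transcription from the RefSeq copy of GRCm38.p6, and each lay wholly inside the GFP+ peak. Capitals mark words of 12 motifs found on either strand, namely GGGCGG for SP/KLF, CCAAT for NFY, GGAAGT for ETS, TGCGCA for NRF1, TGACGT for CREB, CAGCTG for the E-box, AGATAA for the GATA factors, GGAATG for TEAD, TGAGTCA for AP-1 and AAGGTCA for ERR, and the MEF2 and SRF words by name. Words may overlap, as the pair of CREB words in Btg2 does. Myh6, the α-myosin heavy chain of adult mouse heart, is on the minus strand at chr14:54966928-54967177. Myl2, the ventricular regulatory light chain, is on the plus strand at chr5:122100701-122100950. Tcap, which caps titin at the Z-disc, is on the plus strand at chr11:98383561-98383810. Fos, a partner of JUN in AP-1, is on the plus strand at chr12:85473640-85473889, and Jun is on the minus strand at chr4:95052223-95052472. Srf, the serum response factor that drives both early response and contractile genes, is on the minus strand at chr17:46556176-46556425. Btg2, an antiproliferative early response gene, is on the minus strand at chr1:134079121-134079370.
Myh6: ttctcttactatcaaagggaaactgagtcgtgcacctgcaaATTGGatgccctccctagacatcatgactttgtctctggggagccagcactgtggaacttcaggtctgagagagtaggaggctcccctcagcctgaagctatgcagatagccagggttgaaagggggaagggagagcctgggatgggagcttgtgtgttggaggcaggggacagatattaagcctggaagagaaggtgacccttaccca
Myl2: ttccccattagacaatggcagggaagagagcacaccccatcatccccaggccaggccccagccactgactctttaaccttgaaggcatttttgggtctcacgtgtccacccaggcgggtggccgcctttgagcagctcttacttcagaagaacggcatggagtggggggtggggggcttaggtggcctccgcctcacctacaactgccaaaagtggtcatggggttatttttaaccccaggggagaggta
Tcap: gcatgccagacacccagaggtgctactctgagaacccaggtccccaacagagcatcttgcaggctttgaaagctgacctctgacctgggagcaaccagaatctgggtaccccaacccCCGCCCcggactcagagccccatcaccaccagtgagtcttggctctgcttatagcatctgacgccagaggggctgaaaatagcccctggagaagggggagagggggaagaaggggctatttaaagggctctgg
Fos: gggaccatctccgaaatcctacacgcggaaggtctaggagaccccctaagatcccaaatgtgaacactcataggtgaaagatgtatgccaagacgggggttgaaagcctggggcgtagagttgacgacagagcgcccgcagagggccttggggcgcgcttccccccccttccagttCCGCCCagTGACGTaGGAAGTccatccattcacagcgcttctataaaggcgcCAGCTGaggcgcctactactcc
Jun: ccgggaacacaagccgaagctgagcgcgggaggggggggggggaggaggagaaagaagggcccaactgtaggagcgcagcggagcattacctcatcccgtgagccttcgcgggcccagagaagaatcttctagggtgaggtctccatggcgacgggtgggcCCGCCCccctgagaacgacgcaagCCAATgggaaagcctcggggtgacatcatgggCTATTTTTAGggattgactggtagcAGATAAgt
Srf: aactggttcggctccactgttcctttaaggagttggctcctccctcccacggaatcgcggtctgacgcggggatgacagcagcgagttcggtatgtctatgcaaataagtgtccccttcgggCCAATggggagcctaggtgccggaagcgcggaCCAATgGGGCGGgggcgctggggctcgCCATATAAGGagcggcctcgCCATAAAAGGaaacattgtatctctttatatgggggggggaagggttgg
Btg2: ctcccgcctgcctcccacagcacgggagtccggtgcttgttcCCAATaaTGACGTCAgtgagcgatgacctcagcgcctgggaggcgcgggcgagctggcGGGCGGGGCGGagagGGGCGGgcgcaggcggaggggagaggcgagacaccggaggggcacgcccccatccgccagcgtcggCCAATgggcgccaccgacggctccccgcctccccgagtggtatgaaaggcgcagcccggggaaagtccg

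The 3 contractile promoters held few CpG dinucleotides, with 1 in Myh6, 5 in Myl2 and 3 in Tcap. The immediate early promoters held 15 in Fos, 15 in Jun and 29 in Btg2, and that of Srf, which is on the list of cardiac transcription factors, held 17. The Myl2 stretch matched none of the 12 words, Myh6 matched 1 NFY word and Tcap 1 SP/KLF word. The words are strict, and looser forms of each site were not searched. A stretch without a word can still hold such a form, as for MEF2 in Myl2 (ttatttttaa). Fos held an SP/KLF, a CREB, an ETS and an E-box word within 74 bases of the start, and Srf held 2 SRF words that begin 69 and 49 bases before its own start. Jun held an SP/KLF, an NFY, a MEF2 and a GATA word. Btg2 held 3 SP/KLF, 2 overlapping CREB and 2 NFY words. Of 32817 RefSeq promoters of the same length, 32.7% held the SP/KLF word, 33.8% NFY, 6.46% CREB and 19.7% ETS. The E-box was in 13.0%, GATA in 9.99%, SRF in 1.47% and MEF2 in 0.509%. Among the 751 of those promoters whose start lay in a domain, 69.2% held SP/KLF, 32.5% NFY, 7.86% CREB and 14.2% ETS. The E-box was in 10.1%, GATA in 3.60%, SRF in 2.13% and MEF2 in 1.07%. The 32817 promoters were not limited to those with a peak, so the 2 sets differ in openness as well. At the summits of GFP+ peaks with a gene start, SP/KLF was in 75.7% of domains and 65.8% of peaks under 2500 bp.

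Markers listed for each cell type were examined first, since the names of the populations come from the sort. Each was represented by its largest peak within 250 bp of an annotated transcript start. Endothelial markers stood higher by area in the GFP+ list, as for Cdh5 (percentile 85.3 in GFP+ and 17.96 in GFP-) and Tie1 (87.9 and 48.3), and Pecam1 had a start peak in the GFP+ list only. The fibroblast markers Tcf21 and Dpt and the mural markers Pdgfrb and Rgs5 had a start peak in the GFP- list only. Pdgfra, Col1a1 and Myh11 had one in both lists, at a lower percentile in GFP+. These were 87.0 in GFP+ and 96.5 in GFP- for Pdgfra, 80.7 and 95.6 for Col1a1, and 60.3 and 73.7 for Myh11. The GFP+ percentile of Pdgfra was above that of Cdh5. All 5 cardiomyocyte markers had a start peak in both lists, with Myl2 and Myh6 among the first 15 peaks of the GFP+ list. Tnni3 was at percentile 99.8 in both lists. Actc1 was lower and shorter in GFP+ (88.5, 1058 bp) than in GFP- (99.9, 8741 bp), as was Tnnt2 (94.3, 1897 bp, and 99.4, 5866 bp). No start peak was listed in either population for the macrophage genes Csf1r, Adgre1 and C1qa, the lymphocyte genes Cd3e and Cd79a, or the Schwann cell gene Sox10. Of the longer lists used further on, 5 of 8 Schwann cell markers had a peak at the start of the gene record in both populations, 3 of 15 macrophage markers in GFP+ and 4 in GFP-, and 0 of 12 lymphocyte markers in either. None of the 5 endothelial markers had a start in a domain, and Egfl7 was long in GFP+ alone (5183 bp against 1118 bp). How far nuclei of other cells in the GFP+ sort account for the domains at cardiomyocyte genes was not tested. In sorted pools, fewer nuclei with an open domain and weaker opening in every nucleus cannot be told apart.

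Peaks of 2500 bp or more were rare, at 1.35% of GFP+ peaks (880) and 1.64% of GFP- peaks (1297), so the domains were 682 of 880 long GFP+ peaks. Their median length was 3194 bp in GFP+ (range 2500 to 15936 bp) and 3438 bp in GFP- (2506 to 24478 bp). The ratio of GFP+ to GFP- length had a median of 0.969 (95% interval 0.956 to 0.978, by order statistics over domains), against 0.928 for all 56278 GFP+ peaks that overlapped a GFP- peak. The GFP+ peak was the longer one at 235 domains, the GFP- peak at 446, and 1 pair was of equal length. Lengths were within 1.2-fold of each other at 478 domains (70.1%). The GFP+ peak was over 1.5-fold longer at 11 domains, where 7.77% of all shared peaks were, and the GFP- peak was over 1.5-fold longer at 60, where 21.3% of all shared peaks were. The limit on length holds both lengths close, so these counts are descriptions only. Just inside the limit were the domains at Irs1 (2500 bp in GFP+ and 3529 bp in GFP-), Hipk3 (2502 and 2506 bp) and Ski (2505 and 2509 bp). Just outside were Ftl1 (2498 and 2670 bp) and Rab11b (2497 and 2562 bp).

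**Figure D1:**
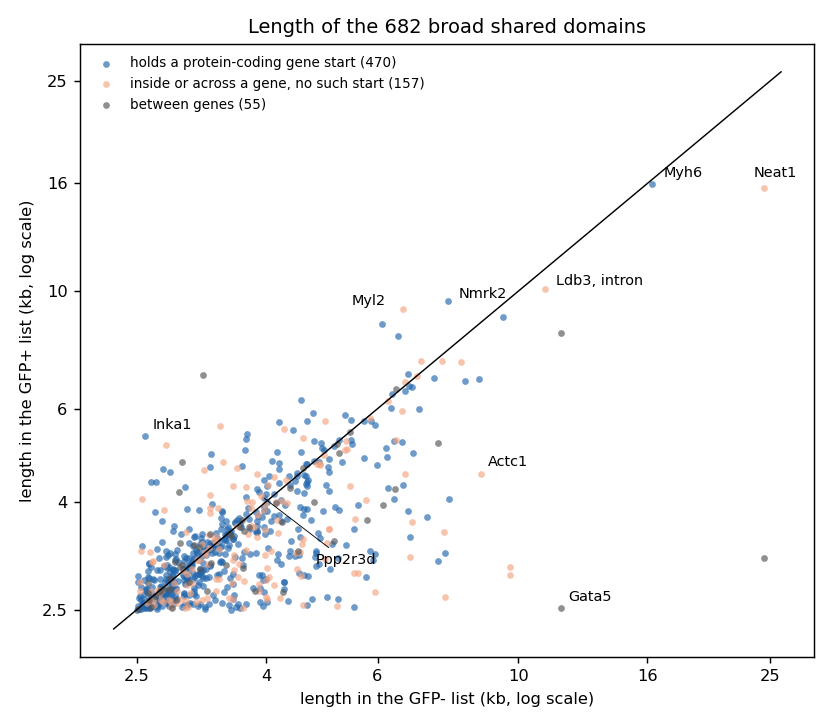
Length of each of the 682 domains in the GFP- list (x axis) and in the GFP+ list (y axis), in kb on log scales, coloured by position relative to protein-coding genes, with the line of equal length. Most points lie near the line, and the points far to its right include Gata5 (2520 bp in GFP+ and 11686 bp in GFP-) and Actc1 (4521 and 8741 bp).

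The domains filled the top of both lists by area. Their median position was 568.5 in GFP+ and 505.5 in GFP-, and positions ran from 1 to 13658 and from 1 to 17389. The first 10 peaks by area were all domains in each list, as were 49 of the first 50 and 95 of the first 100. Of the first 10, 7 were the same in both. Across the 682 domains, Spearman's rank correlation between the lists was 0.623 for length, 0.807 for area and 0.876 for area per bp, values that share the DNA sequence and mappability of each region. Area per bp had a median of 2.99 in the GFP+ domains, 2.14 in peaks broad in GFP+ alone, 1.82 in shared GFP+ peaks under 2500 bp and 1.68 in all GFP+ peaks, and so was not free of the choice by length. The highest points of the paired peaks lay a median of 12 bp apart, within 50 bp at 488 domains (71.6%) and at the same base at 119. They lay over 1000 bp apart at 63.

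The largest domain of both lists covered Neat1, the long noncoding RNA that scaffolds paraspeckles, at chr19:5835174-5850842. It was 15669 bp long in GFP+ and 24478 bp in GFP-, at position 1 in both. The GFP+ domain overlapped the protein-coding gene Frmd8 but not its start, which lay 24432 bp away. Second in both lists was Myh6 (chr14:54953270-54969205), with 15936 bp in GFP+, the longest GFP+ peak, and 16294 bp in GFP-. The body of Ppp2r3d, a regulatory subunit of protein phosphatase 2A, stood at positions 3 and 4 with only 4105 bp in GFP+ and 3930 bp in GFP-. Its area per bp in GFP+, 7.97, was the highest of all domains. A domain between genes on chromosome 2 that covers the start of the muscle microRNA gene Mir133a-2 stood at 6 and 3 (8327 and 11686 bp), and its cluster partner Mir1a-1 started in a separate domain (3580 and 3641 bp, positions 3818 and 4172). Midn, whose nuclear protein promotes the turnover of early response factors, stood at 4 and 6 (8962 and 9453 bp). An intronic domain of Ldb3, a Z-disc protein, stood at 11 and 5 (10123 and 11040 bp).

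The other domains among the first 10 by mean position lay at gene starts. Brd2, a reader of acetylated histones, shared its domain with H2-DMa at positions 8 and 9 (5995 bp in GFP+ and 6984 bp in GFP-). Per1, a repressor of the circadian clock, stood at 9 and 8 (6467 and 6625 bp). Nmrk2, a nicotinamide riboside kinase of muscle, stood at 7 and 14 (9577 and 7748 bp). Tns2, a focal adhesion protein, stood at 13 and 11 (5142 and 5472 bp). The first domain over a gene of the immediate early list was that of Dusp1, a phosphatase of MAP kinases, at positions 16 and 12 (7381 and 7577 bp).

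The 5 lowest ratios belonged to GFP+ peaks that shared 1 longer GFP- peak with another domain, at Neat1 (ratio 0.128), beside Mir133a-2 near Gata5 (0.216), at 2 places in the orphan receptor gene Nr4a1 (0.300 and 0.311), and in Mafk (0.345). In all, 24 domains shared their GFP- partner. Of the 60 domains over 1.5-fold longer in GFP-, 15 did so and 45 had a partner of their own. The highest ratios were at an unplaced scaffold near AC149090.1 (2.19), at Inka1 (2.06), in Rara, a retinoic acid receptor (1.84), at Bcar1, an adaptor of focal adhesions (1.67), and at Myo18a (1.65).

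A protein-coding start lay in 470 of the 682 domains (68.9%, Wilson 95% interval 65.3 to 72.3), compared with 15.8% of all GFP+ peaks. A long peak holds a start more easily, so a window of 1250 bp on either side of the summit was also compared. It held a start at 60.1% of domains (56.4 to 63.7) and 18.4% of all GFP+ peaks (18.1 to 18.7). Peaks that were long in GFP+ alone (58.6%) or in GFP- alone (60.2%) had shares within the interval of the domains. A further 157 domains lay inside or across a protein-coding gene without its start, and 55 lay between genes. When every annotated transcript start counted, 573 domains (84.0%) held one. Intervals here cover counting error over regions and not error between samples.

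Of the domains with a start, 399 held 1, 69 held 2 and 2 held 3. Over 68 pairs of start records, 36 pointed away from each other, 24 towards each other and 8 in the same direction. The triple starts were Cyb5d1, Naa38 and Tmem88 (3561 bp in GFP+ and 3027 bp in GFP-) and Yjefn3, Ndufa13 and Tssk6. Around the 399 single starts, the GFP+ domain reached a median of 1145 bp upstream and 2054 bp downstream, and the GFP- domain 1216 bp and 2220 bp. A median of 64.7% of the GFP+ domain lay downstream, and the summit lay a median of 62 bp before the start. With the transcript start nearest to the middle of the peak in place of the start of the gene record, the downstream median was 51.2%, a value that this choice of start itself brings near the middle. The domain reached the end of the gene at 5 of the 399 and covered at least 50% of the gene at 50.

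**Figure D2:**
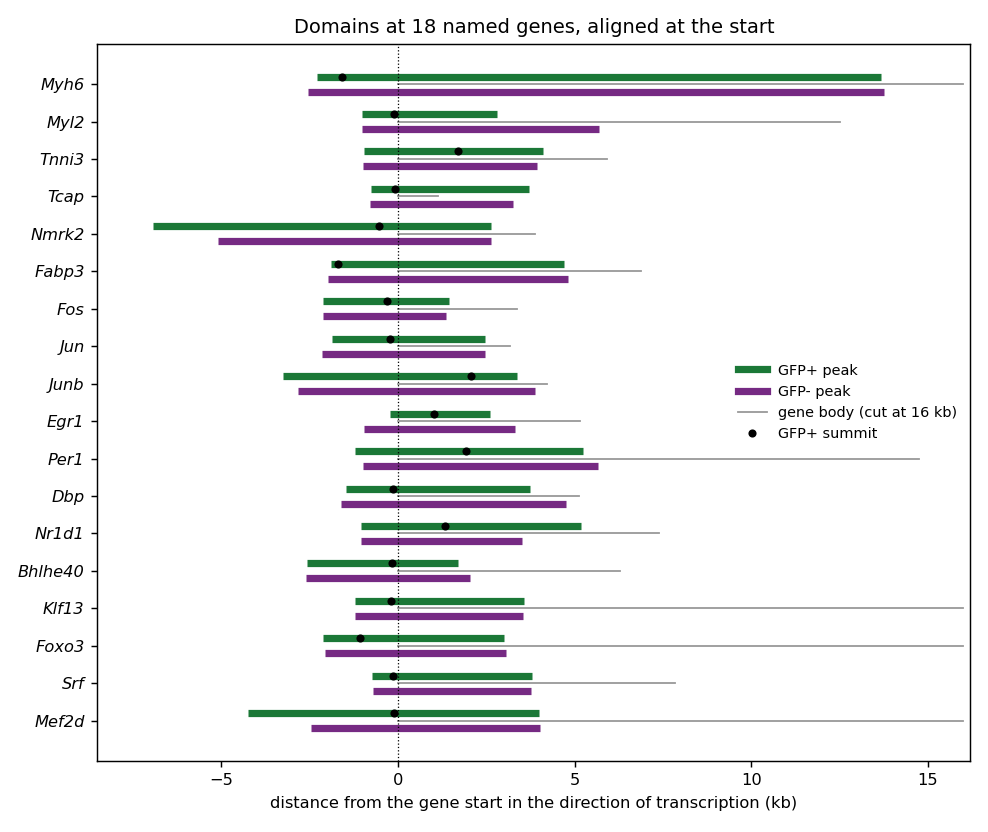
Extent of the GFP+ (green) and GFP- (purple) peak around the start of 18 named genes, in kb in the direction of transcription, with the gene body as a grey line and the GFP+ summit as a black point. The edges of both peaks nearly coincide at Klf13 (1220 bp upstream and 3561 bp downstream in GFP+) and Srf, while the GFP+ peak ends earlier than the GFP- peak at Myl2.

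Few genes lay almost wholly inside domains. Of the 700 protein-coding genes touched by a domain, 88 had at least 50% of their length in domains and 21 had at least 90%. Of those 21, only 3 were 5000 bp or longer, namely Crip2 (100.0%), Myl2 (96.4%) and Myh6 (90.6%). Crip2 encodes a LIM-domain protein of the heart and vessels. Myl2 was covered by 2 domains, 1 at the start (3835 bp in GFP+, 6707 bp in GFP-) and 1 over the rest of the gene (9259 and 6571 bp), which stood at position 15 in GFP+ and 43 in GFP-. Myh6 was covered by 3, of 15936, 7388 and 5932 bp in GFP+ and of 16294, 7025 and 6551 bp in GFP-. Upstream of it, the start of Myh7, the β-myosin heavy chain, had a domain of 5188 bp in GFP+ and 6546 bp in GFP-, and a second one lay between genes (4251 and 4365 bp). Actc1, the cardiac α-actin, had 72.1% of its length in 1 domain of 4521 bp, which was 8741 bp in GFP- and covered the start there but not in GFP+. Lmod2, which elongates thin filaments, had 71.9% and Tnni3, the inhibitory troponin, 69.2%. Among clock genes, the covered share was 80.7% of Dbp and 70.0% of Nr1d1.

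The summit of the domain between genes upstream of Myh7 is shown because it held the words of 3 factors of muscle gene control. The stretch is the plus strand of chr14:55004604-55004803, the 200 bases around the GFP+ summit, with a TEAD, a GATA and a MEF2 word in capitals. A MEF2 word was present in 0.742% of the summit windows of the domains (5 of 674) and in 2.40% of all GFP+ peaks.
Myh7 upstream summit: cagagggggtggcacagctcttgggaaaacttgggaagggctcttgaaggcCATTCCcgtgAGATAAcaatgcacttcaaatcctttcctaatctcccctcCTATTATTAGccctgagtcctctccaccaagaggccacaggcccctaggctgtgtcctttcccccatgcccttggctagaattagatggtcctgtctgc

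CpG-rich summits, with a GC share above 50% and an observed-to-expected CpG ratio above 0.6 in the 200 bp around the summit, were found in 473 of the 674 domains with reference sequence (70.2%, 66.6 to 73.5) and in 18.8% of all GFP+ peaks. Most of this difference went with gene starts. Among peaks with a start, the share was 81.2% in domains (77.5 to 84.5) and 80.9% in GFP+ peaks under 2500 bp (80.2 to 81.7). Among peaks without a start, it was 44.9% in domains (38.2 to 51.7) and 6.96% in shorter GFP+ peaks (6.75 to 7.18). The SP/KLF word followed the same order, with 75.7% against 65.8% at starts and 53.2% against 10.5% elsewhere. A start here is that of the gene record. Of the domains without it, 103 held another transcript start of a protein-coding gene. In the domains without any such transcript start, 29 of the 102 with sequence had a CpG-rich summit (28.4%). Shorter peaks were not split in this way. SRF words were found at 15 of 469 start domains (3.20%, 1.95 to 5.21) and at 0.684% of shorter start peaks (0.538 to 0.869), whereas the shares with a CREB word (9.59%, 7.25 to 12.6, and 10.4%, 9.77 to 10.98) had overlapping intervals. GATA words were in 1.34% of all domains and 8.87% of all GFP+ peaks, and E-box words in 11.9% and 18.4%. At starts, GATA words were in 1.28% of domains (0.588 to 2.76) and 2.13% of shorter peaks (1.86 to 2.44), with overlapping intervals, and without a start in 1.46% (0.499 to 4.21) and 10.2% (9.92 to 10.4). E-box intervals overlapped in both classes, with 9.81% and 11.2% at starts and 16.6% (12.1 to 22.3) and 19.8% (19.5 to 20.1) elsewhere. A match describes the letters and not binding by a factor.

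**Figure D3:**
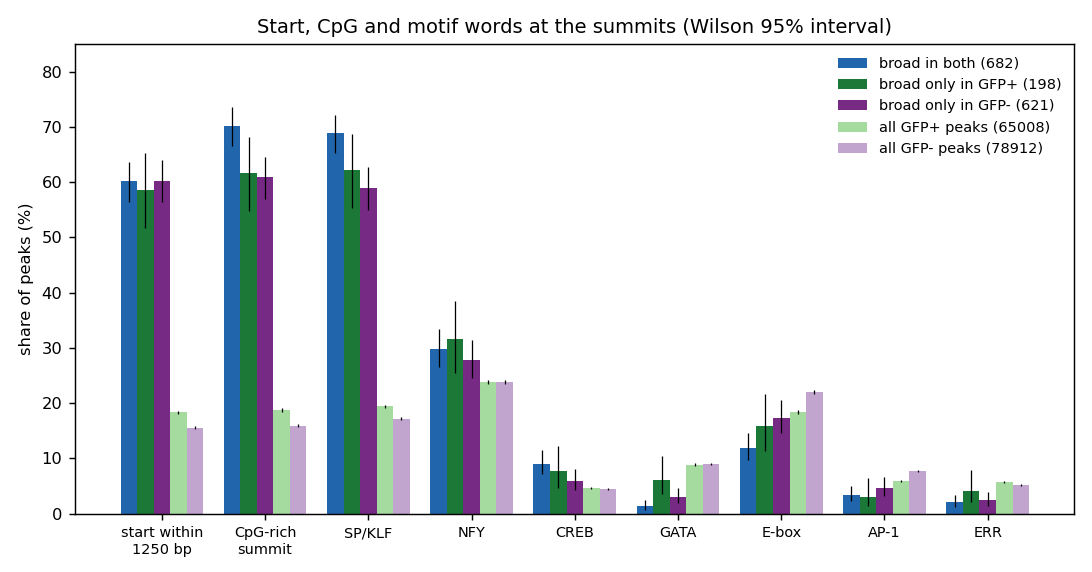
Share of peaks (y axis, %) with a protein-coding start within 1250 bp of the summit, a CpG-rich summit or each motif word within 200 bp, for domains broad in both lists, peaks broad in 1 list and all peaks, with Wilson 95% intervals. The 3 kinds of broad peak are alike in their starts (58.6 to 60.2%) and stand apart from all peaks (18.4% and 15.5%), and the GATA word is least frequent in the domains (1.34%).

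Gene lists were read against all protein-coding genes, of which 544 of 21832 (2.49%) had their start in a domain. Since a gene without any peak cannot have one, the share among genes with a GFP+ start peak is given as well, and it was 4.56% over all genes. The lists of early response and stress regulators had the highest shares. These lists were chosen with earlier results of these data known, and the intervals do not cover that choice. Immediate early genes had 14 of 26 starts in a domain, or 60.9% of those with a GFP+ start peak (40.8 to 77.8). Regulators of the FoxO, KLF and glucocorticoid stress response had 9 of 15, or 69.2% (42.4 to 87.3). Jun (4316 bp in GFP+ and 4622 bp in GFP-) and Junb (6623 and 6727 bp) stood at positions 18 and 22 in GFP+ and 22 and 17 in GFP-. Egr1, a zinc finger factor, had 2817 and 4264 bp, and Fos 3580 and 3487 bp. Klf13 (4782 and 4758 bp) and Foxo3 (5098 and 5124 bp) were nearly equal in length, at positions 38 and 39 and at 47 in both. Of the 20 domains over immediate early genes, 15 were longer in GFP-, 6 of them by over 1.5-fold, and none was over 1.5-fold longer in GFP+. Over all domains, 446 of 682 were longer in GFP-, 60 of them by over 1.5-fold, and 11 were over 1.5-fold longer in GFP+. Of the 6, 2 were pieces in Nr4a1 under the same GFP- peak of 9707 bp.

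The clock list had 4 of 16 starts in a domain, namely Per1, Dbp (5202 bp in GFP+ and 6379 bp in GFP-), Nr1d1 (6230 and 4547 bp) and Bhlhe40 (4279 and 4646 bp). All 4 stood within the first 41 positions of both lists. Cardiac transcription factors had 7 of 27, with Mef2d (8225 and 6474 bp), the GATA cofactor Zfpm1 (4707 and 4623 bp), Srf (4530 and 4473 bp), Gata6 (3904 and 5137 bp), Irx5, Meis1 and Irx3. Ribosomal protein genes, which are strongly transcribed in every cell, had 2 of 82, Rpl7 and Rps14. This was 2.63% of the 76 with a GFP+ start peak (0.725 to 9.10). Histone genes had 0 of 98 (0 of the 43 with a GFP+ start peak, 0 to 8.20%). Heat shock genes had 1 of 13, the constitutive chaperone Hspa8 (8.33% of those with a GFP+ start peak, 1.49 to 35.4). All 3 intervals included the 4.56% of all genes with a GFP+ start peak.

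The study's own lists of cell type genes came from single-cell RNA-Seq and not from these libraries. The cardiomyocyte list had 12 of 110 starts in a domain (12.4% of those with a GFP+ start peak, 7.22 to 20.4), the endothelial list 14 of 177 (9.09%, 5.49 to 14.7), the non-specific list 59 of 729 (8.83%, 6.91 to 11.2) and the fibroblast list 7 of 242 (4.55%, 2.22 to 9.08). Among genes with a GFP+ start peak, all 4 intervals overlapped each other. Over whole lists, the fibroblast interval (2.89%, 1.41 to 5.85) lay below the cardiomyocyte (10.9%, 6.35 to 18.1) and non-specific ones (8.09%, 6.33 to 10.3). It overlapped the endothelial one (7.91%, 4.77 to 12.8). A GFP+ start peak was present for 154 of the 242 fibroblast genes and 97 of the 110 cardiomyocyte genes. In cardiomyocyte genes, domains also lay away from the start, and 20 of the 110 genes were touched by one (18.2%). Of all 21832 protein-coding genes, 700 were touched (3.21%), of the non-specific list 73 of 729 (10.01%) and of the endothelial list 17 of 177 (9.60%). By role, the starts of 3 of 13 thick filament genes (Myh6, Myl2 and Myh7), 2 of 10 thin filament genes (Tnni3 and Tpm1) and 5 of 20 Z-disc genes (Ldb3, Tcap, Pdlim5, Flnc and Cryab) were in domains. In calcium handling it was 1 of 15, Hrc, with further domains over Pln, the inhibitor of the calcium pump, and in Atp2a2, the pump itself. In energy metabolism it was 3 of 42, the fatty acid binding protein Fabp3 (6590 and 6797 bp), Ppargc1b and Ppara, and 2 domains overlapped the myoglobin gene Mb, 1 of which was 1.64-fold as long in GFP+ (5564 and 3383 bp). In conduction and junction genes it was 2 of 18, Jup and Gja1, and in natriuretic peptide genes 0 of 6.

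Endothelial genes of the study's list with a domain included Pim3, a survival kinase (3683 bp in GFP+ and 4068 bp in GFP-), Efna1, an ephrin (5229 and 5212 bp), and Nrp1, a VEGF co-receptor (3191 and 4181 bp). The 42 endothelial markers had no start in a domain. Of them, 36 had a GFP+ start peak, and 5 of these peaks were 2500 bp or longer in GFP+. The interval for 0 of 36 was 0 to 9.64%, which includes the 4.56% of all genes with a GFP+ start peak. Any transcript start added Notch1 (3221 and 2622 bp) and Klf4 (2627 and 4209 bp), and a domain lay in the body of Mecom. The 23 fibroblast, 12 mural, 15 macrophage, 12 lymphocyte and 8 Schwann cell markers had none either. Only 9, 5, 3, 0 and 5 of them had a GFP+ start peak, too few to read as a lack. Among these markers a domain overlapped the macrophage gene Cx3cr1 only, together with a start of its neighbour Csrnp1. Of the fibroblast list, the 7 genes included the early response genes Junb, Ier2 and Egr1.

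**Figure D4:**
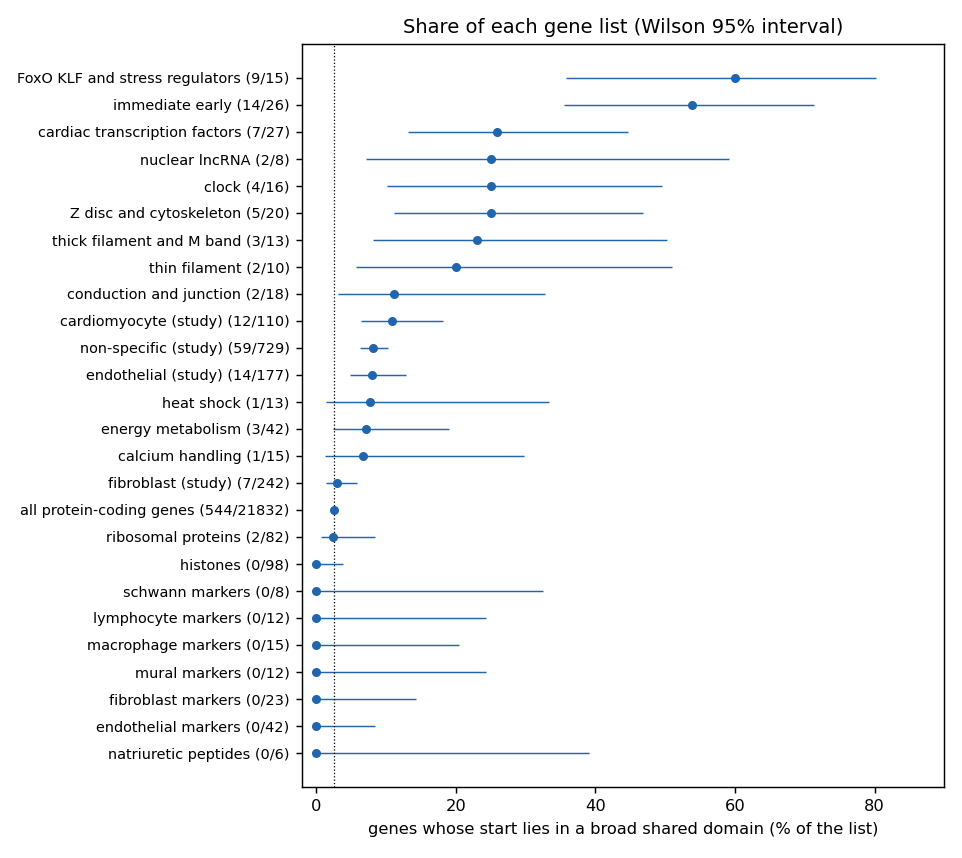
Percent of the genes of each list whose start lay in a domain (points), with Wilson 95% intervals (lines), the counts beside the name and all protein-coding genes as the dotted line at 2.49%. The FoxO, KLF and stress list (9 of 15) and the immediate early list (14 of 26) have the highest shares, and 8 lists have no start in a domain.

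The summits of domains at cardiomyocyte genes were CpG-rich in 7 of 25 (28.0%, 14.3 to 47.6), compared with 15 of 18 at endothelial genes (83.3%, 60.8 to 94.2), 61 of 74 at non-specific genes (82.4%, 72.2 to 89.4) and 19 of 20 at immediate early genes (95%, 76.4 to 99.1). At the 3 sarcomere lists it was 4 of 21 (19.05%, 7.67 to 40.0006), and at the thick filament genes 0 of 8. The cardiomyocyte interval did not overlap the endothelial, non-specific or immediate early ones. It overlapped those of smaller lists, namely fibroblast (7 of 9, 45.3 to 93.7), FoxO, KLF and stress (9 of 12, 46.8 to 91.1), clock (3 of 5, 23.1 to 88.2) and cardiac transcription factors (5 of 8, 30.6 to 86.3). Domains at cardiomyocyte genes had a median length of 4367 bp in GFP+ and 4115 bp in GFP-, those at immediate early genes 3652 and 4635 bp, and those at clock genes 5202 and 4646 bp. A protein-coding start lay in 13 of the 25 cardiomyocyte domains and 14 of the 20 immediate early ones. It lay in 14 of the 18 endothelial and 60 of the 74 non-specific domains. CpG-rich summits were more frequent in domains with a start, and the lists were not compared at equal start content. CREB words were at the summit of 8 of the 20 immediate early domains and 0 of the 25 cardiomyocyte ones, and SRF words at 5 and 2. Over all 674 domains with sequence, CREB words were at 61 summits and SRF words at 17. The lists share some domains and genes, and regions are not replicates.

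**Figure D5:**
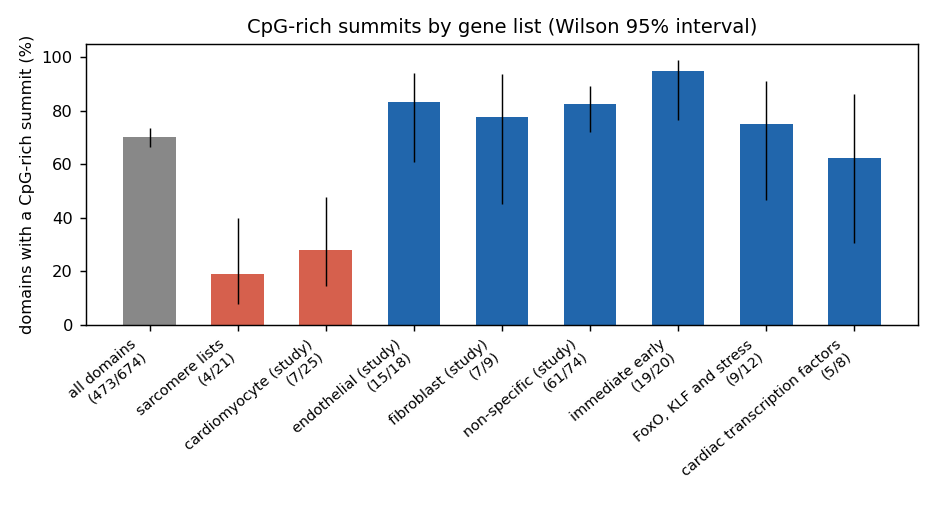
Percent of domains with a CpG-rich summit (bars, with Wilson 95% intervals) for all domains and for domains over the genes of 8 lists, with counts below. The sarcomere (19.05%) and cardiomyocyte (28.0%) bars are the lowest and the immediate early bar (95%) the highest.

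The 473 CpG-rich domains had medians of 3167 bp in GFP+ and 3341 bp in GFP-, and the other 201 of 3235 and 3727 bp. By area the CpG-rich ones stood at a median of 486 in GFP+ and 489 in GFP-, the others at 844 and 597. A start was in 80.5% of the first and 43.8% of the second. The GFP- peak was over 1.5-fold longer at 7.19% of the CpG-rich and 12.9% of the other domains, and the summits lay over 1000 bp apart at 22 and 39 of them.

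A group of 109 domains held no transcript start of a protein-coding gene, 54 of them in a gene and 55 between genes. Their median lengths were 3319 bp in GFP+ and 3641 bp in GFP-, and 29 of the 102 with sequence had a CpG-rich summit (28.4%). In 20, the start of a noncoding gene was present, and 89 held no annotated start at all. Of the 109, the farthest from the start of a protein-coding gene record lay near Mkln1, 179616 bp away (3525 bp in GFP+ and 3692 bp in GFP-). Over all 682 domains, those farthest from the start of a gene record mostly held another transcript start of the gene they lay in. They lay in Nav2, 336792 bp away (3897 and 3793 bp), in Nfib, a nuclear factor I gene, 198339 bp away (3219 and 4533 bp), in Iqschfp, 194153 bp away, at a start of Schip1, and in Dlc1, 152530 bp away (4592 and 3199 bp). In 39 protein-coding genes there were 2 or more domains. Gm20388, a record of 4434882 bp that spans other genes, had 6, Gse1 and Rara had 4 each, and Myh6, Hspg2, a heparan sulfate proteoglycan of basement membranes, Nfic and Nr4a1 were among those with 3. Neighbouring domains were a median of 1.05e+06 bp apart, with 60 of 654 pairs within 10000 bp.

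Noncoding genes were part of several domains. Besides Neat1, the domain of Myh6 held the start of the long noncoding RNA gene Mhrt. A domain over Malat1, a noncoding RNA of nuclear speckles, was far lower in rank, at position 5902 in GFP+ and 3287 in GFP- (2703 and 4250 bp). Of 1005 microRNA hairpins in the RefSeq table, 18 lay in 17 domains. Mir133a-2 and Mir1a-1, whose starts were found through the gene annotation, are not among these 18. Of the 18, 2 known from the heart are shown with the seed, bases 2 to 8, in capitals. Mir22 lay in the domain of Tlcd2 at positions 14 and 10 (4869 bp in GFP+ and 6211 bp in GFP-), and Mir208a, in an intron of Myh6, lay in the third domain of that gene (5932 and 6551 bp).
mmu-miR-22-3p: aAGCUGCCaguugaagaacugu
mmu-miR-208a-3p: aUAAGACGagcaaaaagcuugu

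Broad peaks of 1 list alone mostly overlapped shorter peaks of the other list. Of 198 GFP+ peaks that were broad only there, 197 overlapped a shorter GFP- peak, and 108 overlapped 2 or more pieces. Of all 65008 GFP+ peaks, 56278 overlapped a GFP- peak, and a long peak overlaps another more easily. The longest piece had a median of 2044 bp, and the GFP- list covered a median of 82.5% of the GFP+ peak. Of 621 GFP- peaks broad only there, 620 overlapped a GFP+ peak, 378 in 2 or more pieces. By chromosome, the domains were spread over all autosomes, with 68 on chromosome 11 and 65 on chromosome 7. Per 100 protein-coding genes these were 4.15 and 3.21, and chromosome 15 had the highest autosomal value, 5.22. On chromosome X there were 3 (0.440% of domains and 1.57% of all GFP+ peaks). A further 8 lay on the unplaced scaffold JH584304 around AC149090.1, where the reference is incomplete, and they are counted in the totals. The highest of them stood at 12 in GFP+ and 32 in GFP- (3127 and 3022 bp).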

How the data were processed

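ATAC-Seq was performed on GFP+ and GFP- nuclei from mouse hearts, with 2 replicates per population. Per the labels and the study's methods, the authors trimmed reads with fastp and aligned them to mm10 with Bowtie2 (2.3.5.1 in the submitters' processing notes, while the study's methods name another version). Low-quality alignments (SAMtools 1.19) and duplicates (Picard) were then dropped, and reads were downsampled. Genrich in its ATAC setting made 1 call from both replicates of a population, leaving out the mitochondrial and Y chromosomes and blacklisted regions. The deposited lists hold, for each peak, an area (the significance signal summed over the peak), a score and the −log10 p-value of the summit. All were made by the authors. The score is 1000 times the area per bp, limited to 1000 by the caller, and 82.0% of GFP+ and 83.9% of GFP- peaks reach that limit. No read counts or depths were used here, so the depth behind a peak is unknown, and the smallest area was 200.0 in both lists.

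Peaks were paired by overlap in Python 3.11.15 with numpy 2.4.6, pandas 2.3.3 and scipy 1.17.1, and figures drawn with matplotlib 3.10.9. A domain with several long GFP- partners was paired with the one of largest overlap. Gene positions came from GENCODE mouse release 21 on GRCm38, and sequence, promoters and microRNAs from RefSeq on GRCm38.p6, the same build as mm10. Of the start genes, 426 of 543 symbols matched the promoter table. Shares carry Wilson 95% intervals and medians order-statistic intervals, which cover counting error only. The scripts were tested on simulated peaks. No test between populations was made. The domains, gene lists and markers were chosen with earlier results of these data known. Named were the genes at the 10 domains first by mean position, at the longest domains, at the extreme length ratios, near the length limit, farthest from starts, and up to 8 per gene list by GFP+ area. Others, such as Crip2, Csrnp1, Lmod2, the microRNA genes and the genes whose promoters are shown, were chosen after their values were seen. Alternatives for the length limit, overlap, pairing, gene starts, joining of peaks and ranking were computed. A few items are not reported here.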

Additional observations from a re-analysis of the deposited data

How the results depend on the processing

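Of 80 recomputed values over 12 settings, 53 stayed within the limits of the reported value and none reversed. The median length ratio was 0.962 to 0.976 in the settings for which it was recomputed, which were those that change the domains. Requiring overlap of 50% of both peaks, one-to-one pairs or leaving out the scaffold domains (the last chosen after seeing the data) moved none beyond these limits, nor did a window of 250 bp on each side of the summit, run for the CpG-rich share alone (71.5%).

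With a limit of 2000 bp there were 1592 domains, with starts of 20 cardiomyocyte, 28 endothelial, 13 fibroblast and 110 non-specific genes, and the median GFP+ minus GFP- area percentile was -0.175 in place of -0.078. With 3000 bp there were 364 domains, 7 endothelial, 4 fibroblast and 36 non-specific starts, and a difference of -0.0384. With a summit −log10 p of at least 10, 73.4% held a start, 76.0% were CpG-rich and the difference was -0.0349. Joining peaks up to 500 bp apart gave 1295 domains, 31 cardiomyocyte, 30 endothelial, 16 fibroblast and 99 non-specific starts, a difference of -0.198, 67.9% of the domain downstream and 62.4% CpG-rich. With any transcript start, 84.0% held a start and 51.2% lay downstream, and with every gene type 74.3% held a start. Ranking by area per bp gave a difference of -3.23 and by summit −log10 p -1.17. Beyond the construction of each setting, the cause was not tested.

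No paired analysis was possible because each list pools both replicates, and leaving out a replicate was not run for the same reason.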
